A study of Homo sapiens with 33 samples.

Results

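The transcripts of 10 genes that damp MAP kinase signalling were followed through retinoic acid treatment of a leukaemia line: the dual-specificity phosphatases DUSP1, DUSP2, DUSP4, DUSP5, DUSP6, DUSP7 and DUSP10, the Sprouty genes SPRY2 and SPRY4, and the Sprouty relative SPRED1. They were chosen by name, as the rows of the count table whose gene identifier carries 1 of these symbols. All 10 were found among the 85160 genes of the table, and all 10 were among the 22971 genes with enough counts to be tested.

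MAP kinases are switched on by phosphorylation of a threonine and a tyrosine in the same loop, and the dual-specificity MAP kinase phosphatases remove both phosphates. Many of them are transcribed in response to the ERK pathway they restrain, so that they act as feedback inhibitors, and the same holds for Sprouty proteins, which act further up between receptor tyrosine kinases and Raf. In myeloid cells these genes are known as fast responders to growth factors, cytokines and stress, and their transcripts are short-lived.

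NB4 is an established acute promyelocytic leukaemia line, made of myeloid cells held at the promyelocyte step. Untreated cells at 0 h, cells given the solvent DMSO and cells given 1 µM all-trans retinoic acid (ATRA) were compared. DMSO and ATRA cells were collected at 4, 12, 24, 72 and 120 h, with 3 biological replicates (numbered 2, 4 and 5) in each of the 11 groups, which gave 33 libraries. All groups came from this 1 line. Per the labels, cultures were topped up on day 3 with drug, and whether the 72 h cells were taken before or after that is not given in the sources used here. ATRA makes such cells mature towards granulocytes, and the comparison of ATRA with DMSO at matched times asks which transcripts move on the way. RNA alone was measured: phosphatase protein and MAP kinase phosphorylation were not measured in the files used here.

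Library totals ran from 18341456 to 33490654 counted fragments, with a median of 25927472. Levels are given in CPM, counts divided by a library size scaled with TMM factors. Libraries of 1 group correlated at 0.9855 or above. The label of the line was checked against its markers: MPO, the peroxidase of azurophil granules, averaged between 423 and 11200 CPM in the groups, while KIT had 14 counts in all libraries together. Markers of erythroid cells and megakaryocytes stayed at or under 0.315 CPM in sum in every library, with HBA1, ALAS2 and PF4 at 0 counts. Of the lymphocyte markers CD3E, CD2 and MS4A1 had 12, 9 and 7 counts in all, and CD79A and CD79B were present at up to 29.8 and 24.8 CPM. From the column headers, all libraries of 0, 4 and 12 h shared lane 4. From 24 h on replicate 2 ran in lane 2 and replicates 4 and 5 in lane 3, so each ATRA and DMSO comparison was balanced over lanes. Nothing in the files beyond the labels says that replicates came from separate cultures, and p-values measure the spread between these samples.

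The counted gene models were larger than those of GENCODE 29, and this bears on every level below. SPRY4 was counted over a single block of 50664 bases, of which 13% is GENCODE 29 exon, and DUSP5 and DUSP10 over 37297 and 41175 bases, of which 7.0% and 7.1% are. For DUSP1 and SPRY2 the share was 16.4% and 20.9%, and for the other 5 members it ran from 42.8% to 64.7%. Reads from introns and flanks inside these blocks were therefore counted with the exons. A fragment over several genes was counted for each of them, and DUSP2 shared 51.4% and DUSP6 24.3% of its counted length with a neighbour on the same strand. For the other 8 members that share was 6.0% or less. DUSP7 shared 4.1% with POC1A, which had 30912 counts in all against 32176 of DUSP7, and these were not subtracted. Results for DUSP2 and DUSP6 are given below with the neighbour's counts removed as well, an alternative chosen after seeing the data.

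ATRA divided the 10 genes in the first day and raised most of them later. At 4 h 3 members were higher and 5 lower than in DMSO (edgeR's quasi-likelihood test, Benjamini-Hochberg adjusted p under 0.05), where 12.3% of all tested genes were higher and 12.4% lower. At 12 h the counts were 4 and 4, against 20% and 18.7% of all genes, and at 24 h 3 and 4, against 17.4% and 15.8%. At 72 h 8 members were higher and 1 lower, against 32.1% and 32.6% of all genes. The split at 120 h was again 8 and 1, against 34.9% and 35.6%. The median log2 fold change of the members was -0.24, -0.07 and -0.10 at 4, 12 and 24 h, and 1.47 and 1.63 at 72 and 120 h, while that of all tested genes lay between -0.03 and 0.03 throughout. The same 8 genes rose at both late times: DUSP1, DUSP2, DUSP4, DUSP5, DUSP6, DUSP7, SPRY2 and SPRY4. DUSP10 was the 1 gene that was lower at all 5 times, though at 120 h not with RLE size factors or DESeq2, and DUSP5 and DUSP6 were higher at all 5.

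**Figure D1:**
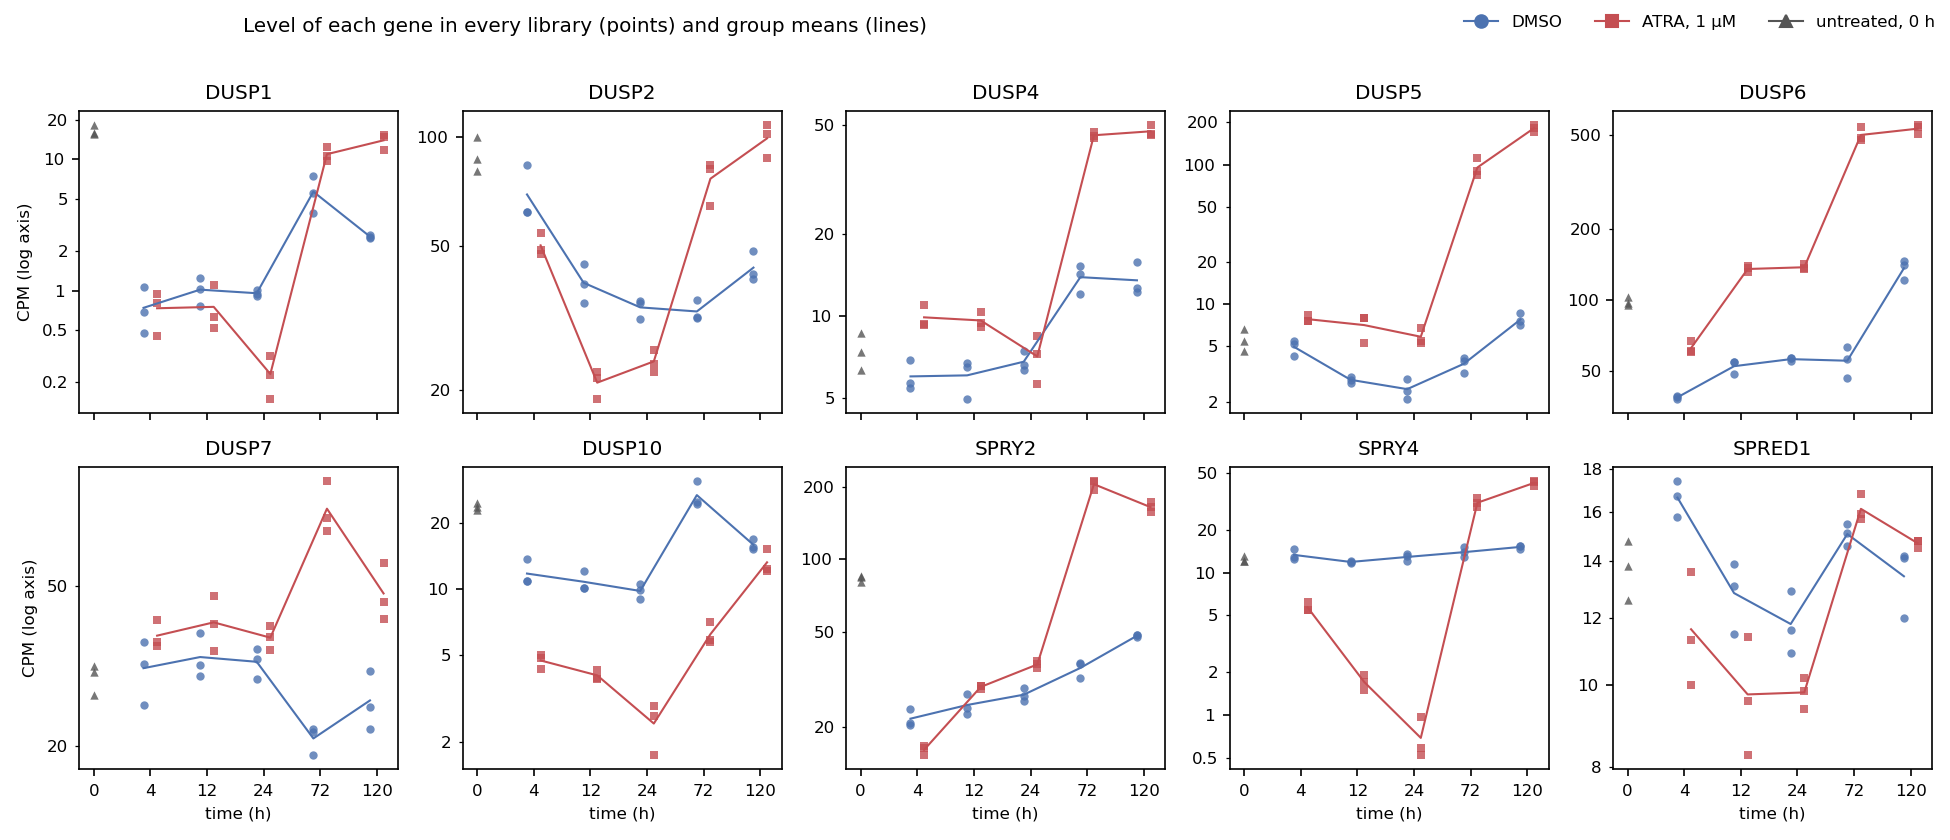
Level of each of the 10 genes in every library, in CPM on a log axis, against time in hours with evenly spaced time points; triangles are untreated cells, circles DMSO, squares ATRA, and lines join group means. SPRY4 in ATRA sinks to a mean of 0.691 CPM at 24 h and stands at 42.6 CPM at 120 h, while SPRY4 in DMSO stays between 11.8 and 15.1 CPM.

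**Figure D2:**
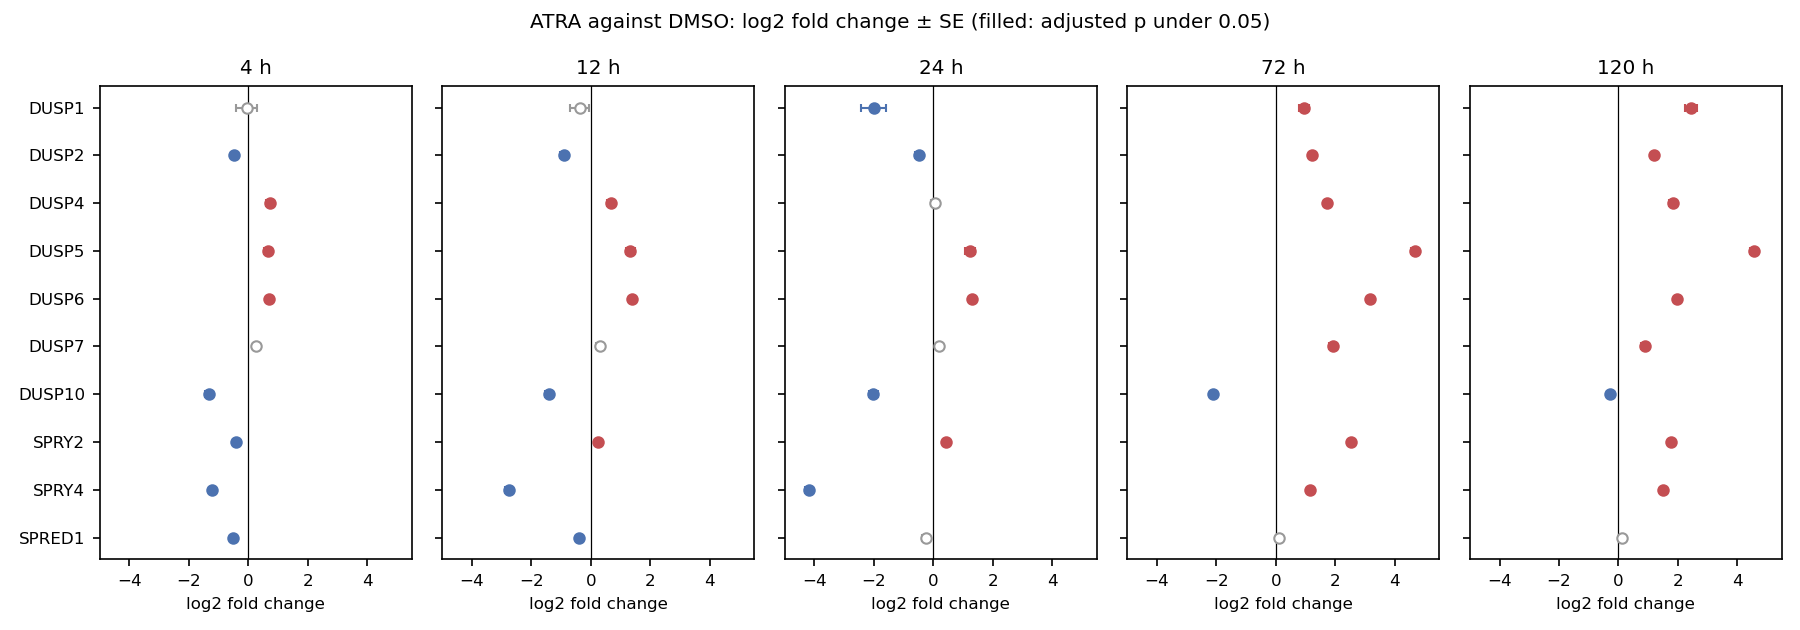
Log2 fold change of ATRA against DMSO (x axis) with its standard error for each of the 10 genes (y axis) at 5 times; filled points passed an adjusted p of 0.05, red higher and blue lower in ATRA, and open points did not. DUSP5 lies at 4.67 and 4.55 at 72 and 120 h, and SPRY4 moves from -4.19 at 24 h to 1.15 at 72 h.

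The promoters of 3 members are shown because their transcripts moved in different ways: DUSP1 was far below the untreated level after 4 h in DMSO, DUSP6 rose with ATRA from 4 h on, and SPRY4 fell and then rose. Each line holds the 250 bases before the RefSeq start (GRCh38.p14), 5′ to 3′ on the gene's strand, which is the minus strand for all 3. They lie at chr5:172771196-172771445 (DUSP1), chr12:89352502-89352751 (DUSP6) and chr5:142324248-142324497 (SPRY4), and capitals mark a cAMP response element.
DUSP1: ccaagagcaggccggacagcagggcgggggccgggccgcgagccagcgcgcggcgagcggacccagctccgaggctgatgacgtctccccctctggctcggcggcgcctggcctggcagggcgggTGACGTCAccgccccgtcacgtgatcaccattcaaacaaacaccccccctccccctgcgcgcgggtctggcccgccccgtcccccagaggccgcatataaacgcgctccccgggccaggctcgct
DUSP6: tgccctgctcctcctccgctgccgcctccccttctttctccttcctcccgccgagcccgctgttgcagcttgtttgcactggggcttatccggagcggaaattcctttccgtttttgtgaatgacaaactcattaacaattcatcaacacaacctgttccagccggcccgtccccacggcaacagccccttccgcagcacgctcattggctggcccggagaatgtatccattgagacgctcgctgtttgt
SPRY4: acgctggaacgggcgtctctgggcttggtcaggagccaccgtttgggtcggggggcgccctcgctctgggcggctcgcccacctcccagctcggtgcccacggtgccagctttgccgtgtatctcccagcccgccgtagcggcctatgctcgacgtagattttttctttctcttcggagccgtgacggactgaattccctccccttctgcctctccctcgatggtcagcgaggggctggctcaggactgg
The element TGACGTCA, the palindrome bound by CREB and ATF proteins, stood in DUSP1 at 125 to 118 bases before the start, and 1.646% of all 35116 RefSeq windows hold it. Windows existed for 8 of the 10 members, 11 windows in all. It was the 1 match of the search, so no motifs overlapped. On both strands none of the 11 held an AP-1 site TGANTCA (6.573% of all windows), an ETS site CCGGAAGT (3.423%), a CArG box (1.159%), an NF-kB site (5.206%), or a retinoic acid response element of the DR5 (0.074%) or DR2 kind (0.031%). GC content was 74.4% for DUSP1, 57.2% for DUSP6 and 65.6% for SPRY4, against a median of 58.0% over all windows. These are matches of letters in short windows and say nothing of binding in NB4 cells.

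SPRY4, which binds Raf and lowers the signal from receptor tyrosine kinases, had the widest swing in response to ATRA. Its counted model lies on the minus strand at chr5:142276564-142327227. DMSO libraries held 12.9, 12.4 and 14.6 CPM at 4 h, and ATRA libraries 5.48, 6.19 and 5.43 CPM. At 12 h the DMSO values were 12.1, 11.8 and 11.7 CPM and the ATRA values 1.5, 1.92 and 1.70 CPM. At 24 h the DMSO values were 13, 12 and 13.6 CPM and the ATRA values 0.961, 0.591 and 0.521 CPM. Every ATRA library was below every DMSO library at these times, and the ATRA level at 24 h rested on 27, 13 and 14 counts. The log2 fold change was -1.22 ± 0.097 (SE, n = 3 per group; edgeR adjusted p = 3.99e-13) at 4 h, -2.77 ± 0.12 (adjusted p = 4.78e-22) at 12 h and -4.19 ± 0.14 (adjusted p = 2.84e-25) at 24 h, the last an 18.2-fold lower level. At 72 h the order was turned round, with 30.6, 29 and 33.1 CPM in ATRA and 15, 12.8 and 13.9 CPM in DMSO. At 120 h ATRA libraries held 40.4, 43.9 and 43.4 CPM and DMSO libraries 15.3, 14.7 and 15.4 CPM. SPRY4 was then higher in all 3 ATRA libraries than in any DMSO library, by 1.15 ± 0.086 at 72 h (adjusted p = 5.79e-15) and 1.49 ± 0.085 at 120 h (adjusted p = 7.10e-19). The change of the effect from 24 to 72 h was 5.34 ± 0.17 on the log2 scale (adjusted p = 8.41e-26), the largest of any member between neighbouring times. Within lane 3 alone the 24 h difference was -4.53 and the 120 h difference 1.48.

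SPRY2, the other Sprouty member, which binds GRB2 and the ubiquitin ligase CBL, followed another course. Its counted model is a single block on the minus strand at chr13:80328423-80342983. At 4 h it stood at 16.4, 16.7 and 15.3 CPM in ATRA and 20.9, 20.4 and 23.9 CPM in DMSO, a log2 fold change of -0.43 ± 0.078 (n = 3; edgeR adjusted p = 3.84e-05) without overlap. At 12 h the difference was 0.24 ± 0.074 (adjusted p = 0.00752), which the fit without a filter on low counts (0.22, adjusted p = 0.073), the fit without replicate 2 (0.16, adjusted p = 0.243) and the fits without DMSO 12 h replicate 2 (0.18, adjusted p = 0.0911) or replicate 5 (0.20, adjusted p = 0.0575) did not keep past the threshold. At 24 h it was 0.42 ± 0.073 (adjusted p = 1.16e-05). The rise was large only from 72 h on. ATRA libraries then held 209, 194 and 211 CPM and DMSO libraries 37.1, 36.8 and 32 CPM, a log2 fold change of 2.54 ± 0.072 (adjusted p = 1.53e-28). At 120 h the values were 164, 172 and 157 CPM against 47.4, 48.2 and 48.5 CPM, a difference of 1.78 ± 0.070 (adjusted p = 5.33e-24). SPRY2 and SPRY4 thus differed in sign at 12 and 24 h and shared it at 4, 72 and 120 h. At 12 h the SPRY2 call depended on the fit.

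SPRED1, which brings the Ras inhibitor neurofibromin to the membrane, moved least, its group means spanning 9.74 to 16.6 CPM, a ratio of 1.70. Its counted model lies on the plus strand at chr15:38252084-38358748. At 4 h it was 11.3, 13.6 and 10 CPM in ATRA and 16.7, 17.4 and 15.8 CPM in DMSO, a log2 fold change of -0.51 ± 0.10 (n = 3; edgeR adjusted p = 0.000136), and at 12 h the difference was -0.41 ± 0.10 (adjusted p = 0.00160). The groups did not overlap at either time. At 24 h the difference was -0.26 ± 0.11 with an adjusted p of 0.0552, and it passed the threshold with RLE size factors (-0.30, adjusted p = 0.0262), with DESeq2 (-0.30, adjusted p = 0.0284) and without DMSO 24 h replicate 5 (-0.33, adjusted p = 0.0346). At 72 and 120 h the differences were 0.09 ± 0.10 (adjusted p = 0.422) and 0.13 ± 0.10 (adjusted p = 0.266). Against the mean of DMSO at 24 and 120 h as control the 72 h value became 0.36 (adjusted p = 0.00039).

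DUSP5, a nuclear phosphatase selective for ERK that also holds ERK in the nucleus, rose most. It was counted on the plus strand over chr10:110496403-110574831. At 4 h ATRA libraries held 8.38, 7.54 and 7.56 CPM and DMSO libraries 4.24, 5.42 and 5.22 CPM. The log2 fold changes of the first day were 0.65 ± 0.14 at 4 h (n = 3; edgeR adjusted p = 0.000533), 1.32 ± 0.15 at 12 h (adjusted p = 3.67e-09) and 1.22 ± 0.17 at 24 h (adjusted p = 1.33e-07), with no overlap between groups. At 72 h ATRA libraries held 90.3, 84.4 and 111 CPM, and DMSO libraries 4.11, 3.24 and 3.90 CPM. At 120 h these were 171, 192 and 183 CPM against 7.65, 8.62 and 7.06 CPM. The late differences were 4.67 ± 0.13 (25.4-fold, adjusted p = 2.47e-28) and 4.55 ± 0.12 (23.4-fold, adjusted p = 2.02e-29). Every library of 120 h held more DUSP5 than those of 72 h in the same arm, and the change of the effect was -0.12 ± 0.18 (adjusted p = 0.663). Within lane 3 the late values were 4.75 and 4.53.

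DUSP6, the cytoplasmic phosphatase that binds and inactivates ERK and is widely used as a readout of the pathway, was the member with the highest CPM. It was counted on the minus strand over chr12:89345919-89353935. At 4 h it stood at 60.7, 60.0 and 66.9 CPM in ATRA and 37.9, 39.3 and 38.7 CPM in DMSO. At 12 h the values were 131, 139 and 136 CPM against 48.5, 54.3 and 54.3 CPM, and at 24 h 142, 135 and 136 CPM against 56.6, 55.0 and 56.7 CPM. ATRA libraries were above all DMSO libraries of the same time. The log2 fold change was 0.69 ± 0.079 (n = 3; edgeR adjusted p = 4.36e-09), 1.37 ± 0.077 (adjusted p = 6.35e-18) and 1.29 ± 0.077 (adjusted p = 2.87e-17). At 72 h ATRA libraries held 487, 475 and 542 CPM against 63.1, 56.0 and 46.6 CPM, a difference of 3.18 ± 0.081 (9.08-fold, adjusted p = 3.53e-30). Against the mean of DMSO at 24 and 120 h it was 2.52 (adjusted p = 5.10e-31). At 120 h the ATRA values of 542, 553 and 504 CPM were close to those of 72 h, but DMSO libraries now held 122, 146 and 141 CPM. The difference at 120 h was 1.97 ± 0.076 (adjusted p = 2.85e-24), smaller than at 72 h by 1.22 ± 0.11 on the log2 scale (change -1.22, adjusted p = 3.03e-12).

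The neighbour POC1B, a centriole protein gene whose counted model runs into that of DUSP6, had 80929 counts in all against 131270 of DUSP6, or 61.7%. In single libraries it had from 47.7% to 109% of the DUSP6 count, and the group means of the pair correlated at 0.993 over the 11 groups. How many of these counts fall in the shared 24.3% cannot be read from a gene table. Taking all POC1B counts away from DUSP6 left 0 counts in 3 DMSO libraries, 2 at 4 h and 1 at 72 h. DUSP6 then still passed the test as higher at all 5 times, with log2 fold changes of 3.60, 2.5, 2.66, 8.16 and 2.46 in order of time. These sizes rest on DMSO levels near 0 and are not estimates of the gene's change. The growth of the effect from 4 to 12 h (0.67 ± 0.11) did not survive this subtraction, with -1.10 and an adjusted p of 0.441. Neither did that from 4 to 120 h (1.28 ± 0.11), with -1.15 and an adjusted p of 0.228. The changes from 24 to 72 h (1.89 ± 0.11) and 72 to 120 h became 5.5 and -5.70.

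**Figure D3:**
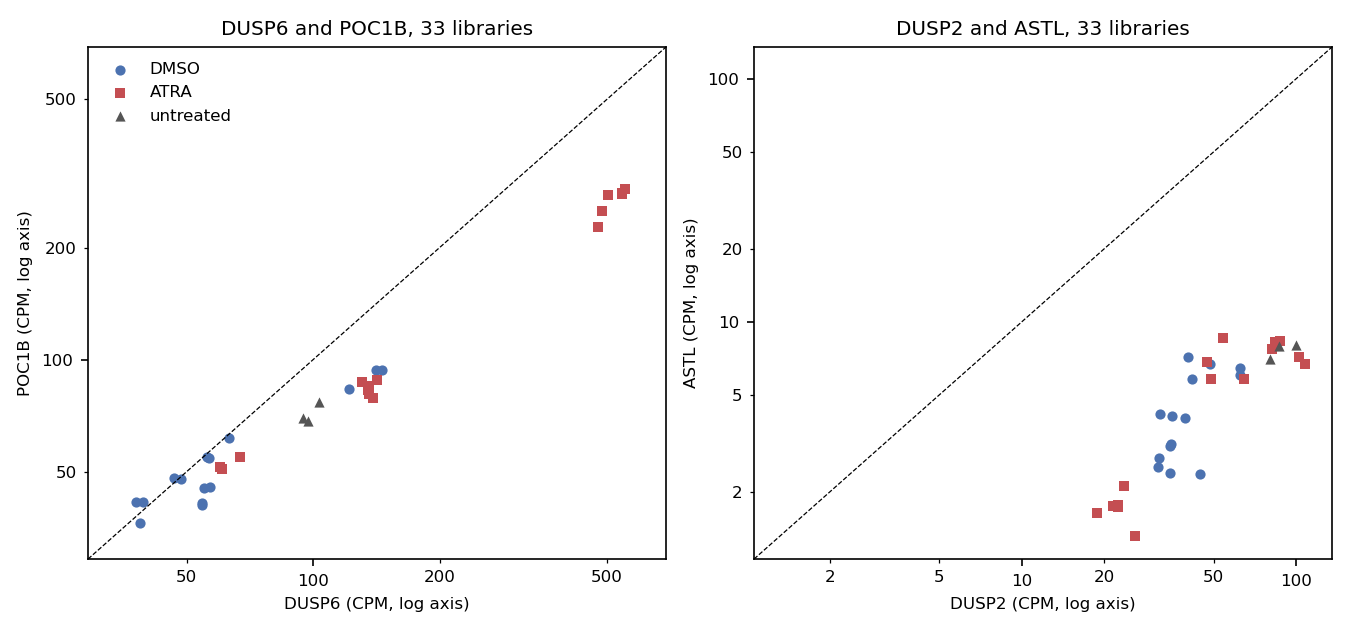
CPM of DUSP6 (x axis) against POC1B (y axis), and of DUSP2 against ASTL, in the 33 libraries on log axes, with symbols for untreated, DMSO and ATRA libraries and a dashed line of equality. POC1B follows DUSP6 up to 287 CPM at a DUSP6 level of 553 CPM, while ASTL stays at or under 8.59 CPM at DUSP2 levels up to 108 CPM.

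DUSP7, another cytoplasmic phosphatase of ERK related to DUSP6, did not pass the test early. Counted on the minus strand over chr3:52045343-52057250, it differed by 0.27 ± 0.13, 0.29 ± 0.13 and 0.20 ± 0.13 on the log2 scale at 4, 12 and 24 h (edgeR adjusted p = 0.131, 0.0684 and 0.261), and its groups overlapped. Without the filter on low counts the 4 and 12 h values passed (adjusted p = 0.0471 and 0.0149), and the 24 h value passed in a fit of the groups compared alone (adjusted p = 0.0265). Leaving out DMSO 4 h replicate 5 (0.40, adjusted p = 0.0353), DMSO 12 h replicate 4 (0.40, adjusted p = 0.0242) or ATRA 12 h replicate 2 (0.39, adjusted p = 0.0241) had the same result. DUSP7 rose at 72 h. ATRA libraries held 74.3, 91.8 and 68.7 CPM and DMSO libraries 21.6, 22 and 18.9 CPM, a log2 fold change of 1.91 ± 0.13 (n = 3; adjusted p = 7.34e-16). DMSO at 72 h was the lowest of the 11 groups for this gene. Against the mean of DMSO at 24 and 120 h the 72 h value was 1.43 (adjusted p = 3.05e-15). At 120 h ATRA libraries held 45.6, 57.1 and 41.4 CPM and DMSO libraries 25, 30.8 and 22 CPM. The difference at 120 h was 0.89 ± 0.13 (adjusted p = 1.31e-07). The effect was smaller at 120 than at 72 h (change -1.02 ± 0.19, adjusted p = 2.10e-05), as for DUSP6 and SPRY2.

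DUSP1, the nuclear phosphatase of p38 and JNK and an immediate-early gene, had the lowest CPM of all members in each group of the first day. It was counted on the minus strand over chr5:172762232-172789244. At 24 h DMSO libraries held 1.02, 0.939 and 0.911 CPM and ATRA libraries 0.320, 0.227 and 0.149 CPM, the latter from 9, 5 and 4 counts. The log2 fold change of -2.00 ± 0.42 passed the test (n = 3; edgeR adjusted p = 0.000184) without overlap, while those of 4 h (-0.06 ± 0.34, adjusted p = 0.939) and 12 h (-0.38 ± 0.31, adjusted p = 0.356) did not. At these depths only large differences were detectable. At 72 h the values were 10.7, 9.76 and 12.4 CPM in ATRA and 3.92, 5.59 and 7.52 CPM in DMSO, a difference of 0.94 ± 0.18 (adjusted p = 1.34e-05). DMSO at 72 h was itself above DMSO at 24 and 120 h, and against the mean of those 2 groups the ATRA value at 72 h was 2.80 higher (adjusted p = 4.52e-18). At 120 h ATRA libraries held 14.7, 15.4 and 11.8 CPM and DMSO libraries 2.52, 2.67 and 2.56 CPM, a difference of 2.44 ± 0.19 (adjusted p = 1.69e-14). DUSP1 in ATRA at 120 h stood just below the untreated level of 18.3, 15.7 and 15.8 CPM.

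DUSP2, a nuclear phosphatase found mainly in blood cells, was lower in ATRA on the first day and higher later. It was counted on the minus strand over chr2:96140927-96145440. Its log2 fold changes were -0.47 ± 0.11 (n = 3; edgeR adjusted p = 0.000894), -0.92 ± 0.11 (adjusted p = 1.51e-08) and -0.50 ± 0.11 (adjusted p = 0.00057) at 4, 12 and 24 h. Without DMSO 4 h replicate 5, which held 83.6 CPM against 62.2 and 62.2 CPM in the other 2, the 4 h value was -0.31 (adjusted p = 0.0345). At 12 h ATRA libraries held 18.8, 21.5 and 22.4 CPM and DMSO libraries 34.7, 44.6 and 39.2 CPM. At 72 h ATRA libraries held 83.9, 64.5 and 81.6 CPM against 31.6, 31.8 and 35.3 CPM, and at 120 h 102, 108 and 87.4 CPM against 41.8, 48.3 and 40.4 CPM. The late differences of 1.22 ± 0.11 (adjusted p = 1.56e-12) and 1.19 ± 0.11 (adjusted p = 1.15e-12) had no overlap. The neighbour ASTL, an egg protease gene with 9.72% of the DUSP2 count, left these calls as they were: with its counts subtracted DUSP2 differed from DMSO by -0.54, -0.92, -0.49, 1.25 and 1.32 in order of time.

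DUSP4, a nuclear phosphatase of ERK and JNK, was higher in ATRA at 4 of the 5 times. At 4 h it held 9.25, 11 and 9.37 CPM in ATRA and 5.44, 5.68 and 6.86 CPM in DMSO, a log2 fold change of 0.72 ± 0.13 (n = 3; edgeR adjusted p = 4.68e-05), and at 12 h the difference was 0.66 ± 0.13 (adjusted p = 7.62e-05). At 24 h the groups overlapped, with 8.40, 7.27 and 5.62 CPM against 6.59, 7.45 and 6.32 CPM (0.06 ± 0.14, adjusted p = 0.776). From 72 h on the gene was clearly separated: 47.4, 45.8 and 44.8 CPM in ATRA against 15.3, 14.3 and 12 CPM in DMSO, and 50.2, 46.5 and 46.0 CPM against 12.2, 15.7 and 12.6 CPM at 120 h. These differences were 1.73 ± 0.11 (adjusted p = 1.13e-16) and 1.82 ± 0.11 (adjusted p = 1.38e-17).

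DUSP10, a phosphatase of JNK and p38 with little activity on ERK, was the member that stayed lower. It was counted on the minus strand over chr1:221688536-221742927. DMSO libraries held 10.8, 10.8 and 13.6 CPM at 4 h and ATRA libraries 4.84, 4.31 and 4.99 CPM. At 24 h these were 8.95, 10.5 and 9.87 CPM in DMSO and 1.74, 2.91 and 2.64 CPM in ATRA, and at 72 h 24.8, 31 and 24.4 CPM in DMSO and 5.85, 5.70 and 7.08 CPM in ATRA. The log2 fold change was -1.33 ± 0.13 at 4 h (n = 3; edgeR adjusted p = 6.88e-11), -1.41 ± 0.13 at 12 h (adjusted p = 1.16e-11), -2.03 ± 0.15 at 24 h (adjusted p = 8.89e-15) and -2.10 ± 0.12 at 72 h (adjusted p = 1.70e-18). All ATRA libraries lay below all DMSO libraries up to 72 h. Since DMSO at 72 h was above DMSO at 24 and 120 h for this gene too, the 72 h difference against the mean of those groups was -1.01 (adjusted p = 2.27e-10). At 120 h the groups overlapped, at 15.2, 12.3 and 12.1 CPM in ATRA and 15.5, 15.2 and 16.9 CPM in DMSO. The difference of -0.27 ± 0.12 (adjusted p = 0.0353) was not past the threshold with RLE size factors (-0.17, adjusted p = 0.179) or DESeq2 (-0.17, adjusted p = 0.197). Nor was it without DMSO 120 h replicate 5 (-0.22, adjusted p = 0.126), ATRA 120 h replicate 4 (-0.24, adjusted p = 0.112) or ATRA 120 h replicate 5 (-0.23, adjusted p = 0.12). Within lane 3 it was -0.45 (adjusted p = 0.00441).

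The ATRA effect itself was compared between times. Its size changed for 5 members from 4 to 12 h, where 14% of all tested genes changed, and for 2 from 12 to 24 h, against 6.90%. From 24 to 72 h it changed for 9 members, all upwards, against 45.9% of all genes in either direction. DUSP10 was the exception, with -0.07 ± 0.20 (edgeR adjusted p = 0.800), and SPRED1 passed narrowly, with 0.35 ± 0.15 (adjusted p = 0.0446). That SPRED1 change was not past the threshold without replicate 2 (0.26, adjusted p = 0.307), without the filter on low counts (0.34, adjusted p = 0.137), or with any of 10 of the 12 single libraries left out, the exceptions being replicate 5 of DMSO at 24 and at 72 h. Between 72 and 120 h 6 members changed, against 39.3% of all genes. DUSP10 (1.83 ± 0.17), DUSP1 (1.5 ± 0.26) and SPRY4 (0.34 ± 0.12) moved upwards, and DUSP6, DUSP7 and SPRY2 (-0.76 ± 0.098) downwards. The SPRY4 change was lost without the filter on low counts (0.32, adjusted p = 0.15), without replicate 2 (0.29, adjusted p = 0.180) or without DMSO 72 h replicate 2 (0.26, adjusted p = 0.119), ATRA 72 h replicate 4 (0.31, adjusted p = 0.0513), DMSO 120 h replicate 2 (0.32, adjusted p = 0.0519) or DMSO 120 h replicate 4 (0.29, adjusted p = 0.0811). From 4 to 120 h all 10 effects changed upwards, against 56.2% of all genes in either direction. For DUSP6 this change was lost with POC1B counts subtracted (-1.15, adjusted p = 0.228), as was that from 4 to 12 h (-1.10, adjusted p = 0.441). Some early changes depended on single libraries too. DUSP5 (0.68 ± 0.21, adjusted p = 0.0262) and DUSP2 (-0.45 ± 0.16, adjusted p = 0.0468) from 4 to 12 h, and DUSP4 (-0.60 ± 0.19, adjusted p = 0.0457) from 12 to 24 h, each lost the call when some single libraries were left out. For DUSP5 these were replicates 4 and 5 of DMSO and of ATRA at 4 h, replicates 2 and 4 of DMSO at 12 h and replicates 4 and 5 of ATRA at 12 h (0.56 to 0.66). For DUSP2 they were DMSO 4 h replicates 2 and 4, ATRA 4 h replicate 4, DMSO 12 h replicates 4 and 5 and ATRA 12 h replicate 2 (-0.48 to -0.37). The DUSP2 change was also lost with ASTL counts subtracted (-0.38, adjusted p = 0.122), without replicate 2 (-0.46, adjusted p = 0.133) and in the fit of the groups compared alone (-0.44, adjusted p = 0.0828). For DUSP4 they were replicates 2 and 5 of DMSO and of ATRA at 12 h, replicates 2 and 4 of DMSO at 24 h and replicates 4 and 5 of ATRA at 24 h (-0.64 to -0.45), and the call was lost without replicate 2 (-0.65, adjusted p = 0.114) and with the groups compared alone (-0.60, adjusted p = 0.0545) as well. DUSP10 (-0.62 ± 0.20, adjusted p = 0.052) and DUSP1 (-1.62 ± 0.53, adjusted p = 0.0592) from 12 to 24 h passed in some such fits: DUSP10 without DMSO 12 h replicate 2 (-0.71), DMSO 24 h replicate 2 (-0.67) or ATRA 24 h replicate 4 (-0.75), and DUSP1 without DMSO 12 h replicate 5 (-1.79) or ATRA 12 h replicate 5 (-1.86). With all libraries kept, DUSP10 passed with RLE size factors (adjusted p = 0.0461) and DESeq2 (adjusted p = 0.0341). DUSP1 passed without the filter on low counts (adjusted p = 0.0189), with DESeq2 (adjusted p = 0.019) and with the groups compared alone (adjusted p = 0.0494). DUSP2 in this step (0.42 ± 0.16, adjusted p = 0.122) passed without the filter (adjusted p = 0.0164) and with the groups compared alone (adjusted p = 0.0349).

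The members also moved in the control cultures, so the untreated level and the DMSO level are different baselines. All 5 of these comparisons share the 3 untreated libraries, which were taken at 0 h alone. Solvent, time in culture and handling therefore cannot be told apart in any of them. At 4 h in DMSO 1 member was higher and 5 lower than in untreated cells (15.7% and 15.7% of all tested genes). At 12 h the counts were 0 and 6 (11.2% and 11.5% of all genes), at 24 h 0 and 6 (9.87% and 9.24%), at 72 h 1 and 6 (26.9% and 24.7%) and at 120 h 4 and 4 (12.3% and 9.58%). From 24 h on the DMSO libraries ran in other lanes than the untreated ones, and lane and time cannot be told apart there. The 4 and 12 h libraries shared the lane of the untreated ones.

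DUSP1 fell most in the controls. Untreated libraries held 18.3, 15.7 and 15.8 CPM and DMSO libraries of 4 h 0.686, 0.476 and 1.06 CPM, a log2 fold change of -4.47 ± 0.23 or 22.1-fold (n = 3; edgeR adjusted p = 1.99e-18). It was -4.04 at 12 h, -4.12 at 24 h, -1.53 at 72 h and -2.67 at 120 h, each past the threshold. SPRY2 fell from 80.3, 84.3 and 85.2 CPM to 20.9, 20.4 and 23.9 CPM at 4 h (-1.94 ± 0.074, adjusted p = 2.68e-22) and came back in part, to -0.79 ± 0.070 at 120 h (adjusted p = 1.11e-11). DUSP6 fell from 103, 94.8 and 97.4 CPM at 0 h, with a difference of -1.35 ± 0.079 at 4 h (adjusted p = 1.34e-16) and was above the untreated level at 120 h (0.47 ± 0.075, adjusted p = 9.62e-06), though not with POC1B counts subtracted (0.77, adjusted p = 0.106). With that subtraction it was still lower at 4, 12, 24 and 72 h (-5.03, -1.52, -1.71 and -4.95). DUSP10 was lower at 4, 12, 24 and 120 h, with -1.01, -1.14, -1.27 and -0.57, and DUSP2 at all 5 times, with -0.36 to -1.44. The DUSP2 difference at 4 h overlapped between groups and was lost without untreated replicate 5 (-0.27, adjusted p = 0.0747), DMSO 4 h replicate 2 (-0.30, adjusted p = 0.0572) or DMSO 4 h replicate 4 (-0.29, adjusted p = 0.0538).

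SPRY4 did not take part in this fall. It differed from untreated cells by 0.11 ± 0.090 at 4 h (edgeR adjusted p = 0.403), -0.07 at 12 h, 0.05 at 24 h and 0.16 at 72 h, none past the threshold unless DMSO 72 h replicate 4 was left out (0.24 at 72 h, adjusted p = 0.0499), and by 0.29 ± 0.089 at 120 h (adjusted p = 0.0163). The last was not kept without replicate 2 (0.27, adjusted p = 0.128), untreated replicate 2 (0.28, adjusted p = 0.0548), untreated replicate 4 (0.27, adjusted p = 0.0713) or DMSO 120 h replicate 5 (0.28, adjusted p = 0.0639). DUSP4 was higher at 72 h (0.89 ± 0.13) and 120 h (0.85 ± 0.13). Its earlier differences of -0.32 ± 0.14 at 4 h (adjusted p = 0.0784) and -0.30 ± 0.14 at 12 h (adjusted p = 0.114) passed without untreated replicate 4 (-0.44 and -0.42), and the first also without DMSO 4 h replicate 5 (-0.44). DUSP5 was lower at 12, 24 and 72 h (-0.93, -1.12 and -0.55) and higher by 0.50 ± 0.14 at 120 h (adjusted p = 0.00913), the last not past the threshold without untreated replicate 5 (0.37, adjusted p = 0.0980) or DMSO 120 h replicate 4 (0.42, adjusted p = 0.0533). DUSP7 was lower at 72 h alone (-0.51 ± 0.14, adjusted p = 0.00169). SPRED1 was higher at 4 h by 0.28 ± 0.10 (adjusted p = 0.0318), a call lost without untreated replicate 2 (0.28, adjusted p = 0.0693) or 5 (0.21, adjusted p = 0.182) and without DMSO 4 h replicate 2 (0.26, adjusted p = 0.0826) or 4 (0.24, adjusted p = 0.110).

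Ordered by mean level over the 11 groups, 5 members were highest in ATRA at 120 h: DUSP2 (99.3 ± 10.8 CPM, SD, n = 3), DUSP4 (47.6 ± 2.32), DUSP5 (182 ± 10.8), DUSP6 (533 ± 25.5) and SPRY4 (42.6 ± 1.88). DUSP7 (78.2 ± 12.1) and SPRY2 (205 ± 9.47) were highest in ATRA at 72 h. DUSP1 was highest in untreated cells (16.6 ± 1.47), DUSP10 in DMSO at 72 h (26.7 ± 3.66) and SPRED1 in DMSO at 4 h (16.6 ± 0.80). Some of these first places were shared: ATRA at 72 and 120 h overlapped for DUSP4 and DUSP6, ATRA at 72 h overlapped with DMSO at 4 h for SPRED1, DMSO at 72 h overlapped with untreated cells for DUSP10, and ATRA at 120 h overlapped with untreated cells for DUSP2. The lowest group was ATRA at 24 h for DUSP1 (0.232 CPM), DUSP10 (2.43) and SPRY4 (0.691), ATRA at 12 h for DUSP2 (20.9) and SPRED1 (9.74), ATRA at 4 h for SPRY2 (16.1), DMSO at 4 h for DUSP4 (5.99) and DUSP6 (38.7), DMSO at 24 h for DUSP5 (2.47) and DMSO at 72 h for DUSP7 (20.8). Further down, ATRA at 24 h, DMSO at 120 h and ATRA at 12 h overlapped for DUSP6, and the 5 DMSO groups and untreated cells overlapped in turn for SPRY4, whose ATRA groups of 4, 12 and 24 h each stood apart. From its second place on every neighbour of DUSP7 overlapped. The ratio of the highest to the lowest group mean was 73.7 for DUSP5, 71.6 for DUSP1 and 61.6 for SPRY4, then 13.8 for DUSP6, 12.7 for SPRY2, 11 for DUSP10, 7.95 for DUSP4, 4.75 for DUSP2 and 3.76 for DUSP7. Per kilobase of counted length, the median of the group means was 12.9 CPM for DUSP6 and 9.64 for DUSP2, from 1.05 to 2.85 for DUSP7, SPRY2 and SPRED1, and 0.65 or less for the other 5. This order depends on the long counted models of DUSP1, DUSP5, DUSP10, SPRY2 and SPRY4.

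Over the 11 groups the mean log2 levels of DUSP4 and DUSP5 correlated at r = 0.93, DUSP5 and DUSP6 at 0.91, DUSP6 and SPRY2 at 0.88 and SPRY4 and SPRED1 at 0.85, and the lowest of the 45 pairs was DUSP7 and DUSP10 at -0.54. The groups share times and libraries, and no test was made. Among 11161 other protein-coding genes, the most alike in pattern over the 11 groups were POC1B (r = 0.993) and ZNF106 (0.972) for DUSP6, and ASTL (0.909) for DUSP2. POC1B and ASTL share counted sequence with these members. For DUSP4 they were AKAP10 and NUMB (both 0.985), for DUSP5 TANK (0.983) and SNX13 (0.982), for SPRY2 PIK3CB (0.973) and SLFN11 (0.969), for DUSP10 SERINC5 (0.960) and LATS2 (0.954), and for SPRY4 HIVEP1 (0.959) and SH3BP5 (0.951). For DUSP1 they were GNAS (0.948) and ATF6 (0.946), for DUSP7 ZBTB7A and AC003688.1 (both 0.940), and for SPRED1 ABL2 (0.916) and PPTC7 (0.909).

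Transcripts known to follow ERK output, such as the immediate-early factors, were counted beside the members. Of 20 listed genes 17 were tested. In ATRA against DMSO 3 were higher and 5 lower at 4 h (12.3% and 12.4% of all tested genes), 2 and 5 at 12 h (20% and 18.7%), and 3 and 9 at 24 h (17.4% and 15.8%). At 72 h 14 were higher and 2 lower (32.1% and 32.6% of all genes), with a median log2 fold change of 1.97 (all genes -0.02), and at 120 h 10 and 6 (34.9% and 35.6%), with a median of 0.98 (all genes -0.03). At 72 h the smallest p belonged to PHLDA1 (4.31 ± 0.10, edgeR adjusted p = 1.45e-31), EGR1 (3.83 ± 0.097) and EGR2 (5.79 ± 0.18), the latter pair zinc finger factors induced within minutes by ERK. EGR1 went from a mean of 6.55 CPM in DMSO to 92.8 CPM in ATRA at 72 h and differed by -0.03 ± 0.087 at 120 h (adjusted p = 0.743, a value picked after it was seen), when DUSP5, DUSP6 and SPRY2 were higher. At 120 h the smallest p belonged to MYC (-3.09 ± 0.087), ETV5 (1.91 ± 0.055) and FOS (3.23 ± 0.12). At 4 h they were MYC (-1.75 ± 0.082), FOSL1 (-1.40 ± 0.13) and FOSB (2.10 ± 0.24). From 72 to 120 h the ATRA effect changed upwards for 2 of the 17 and downwards for 12, with a median of -1.75 (all genes -0.07). In that step 3 members changed upwards and 3 downwards, with a median of 0.0, and 39.3% of all genes changed. In DMSO against untreated cells 14 of the 17 were lower at each of 4, 12 and 24 h, with 1 higher at 4 h. At 72 and 120 h 12 and 10 were lower and 3 and 3 higher. Of all tested genes 15.7%, 11.5%, 9.24%, 24.7% and 9.58% were lower in order of time. The shares of all genes that were higher were 15.7%, 11.2%, 9.87%, 26.9% and 12.3%. EGR1 and FOS, picked here after their values were seen, differed by -4.87 ± 0.11 and -5.61 ± 0.14 at 4 h, beside -4.47 for DUSP1.

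**Figure D4:**
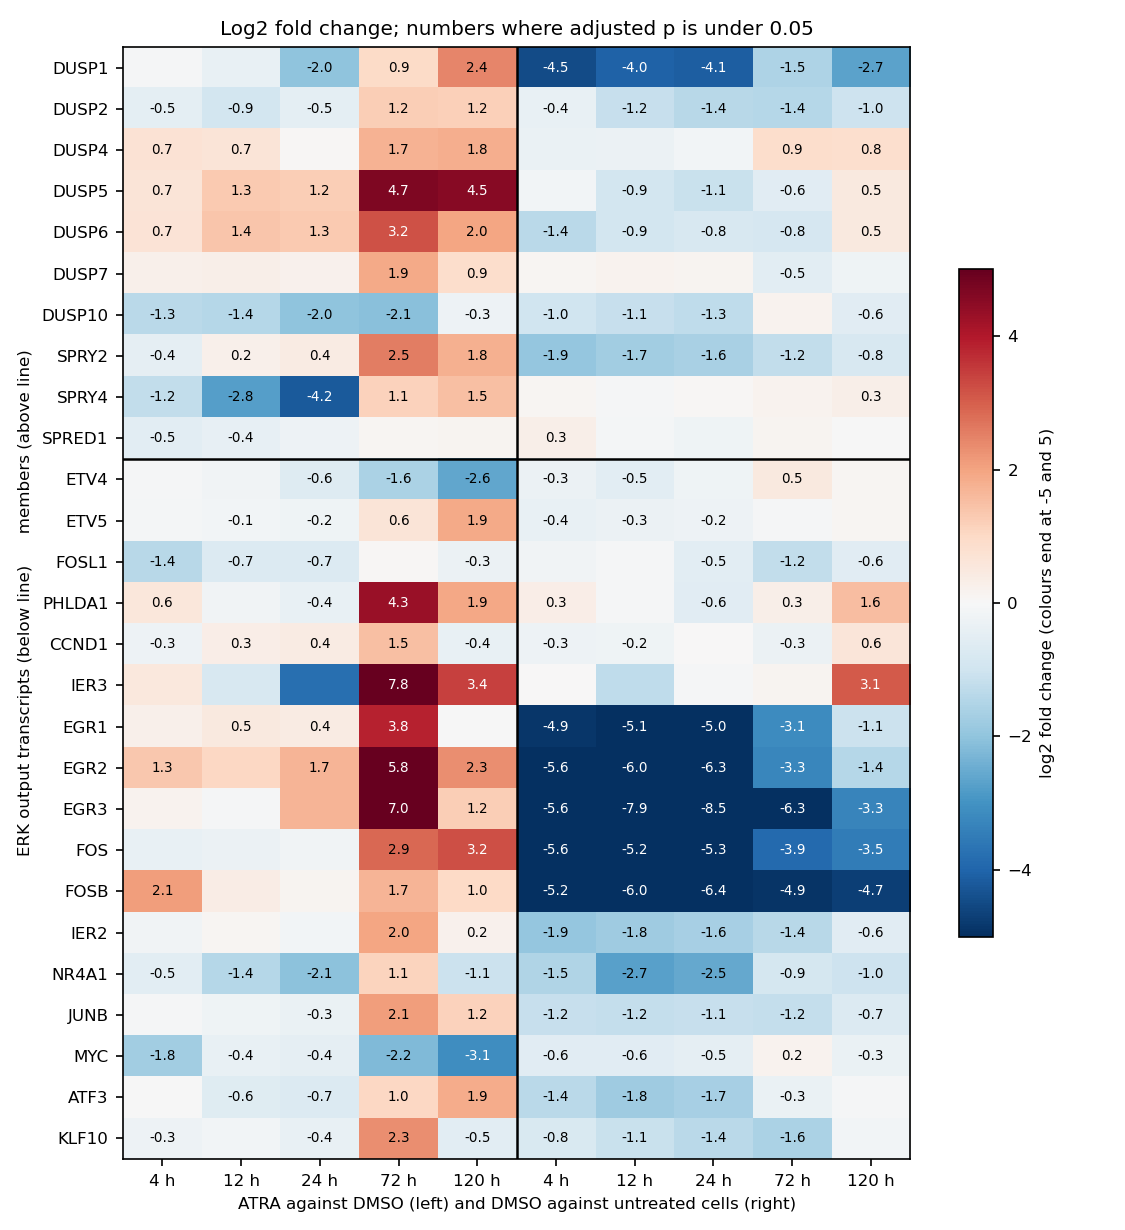
Log2 fold change (colour, ending at -5 and 5) of the 10 genes and of 17 transcripts that follow ERK output (rows) in ATRA against DMSO (left columns) and DMSO against untreated cells (right columns) at 5 times, with numbers where the adjusted p is under 0.05. Of the 17, 14 carry a positive number at 72 h of ATRA and 14 a negative one at 4 h of DMSO, and DUSP1 has -4.5 in the 4 h DMSO column.

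Genes of the pathway above the phosphatases were counted in the same way. Of 22 genes of the ERK cascade from Ras to its kinases, 3 were higher and 1 lower at 4 h (all genes 12.3% and 12.4%), 5 and 5 at 12 h (20% and 18.7%), and 4 and 5 at 24 h (17.4% and 15.8%). At 72 h 15 were higher and 3 lower (32.1% and 32.6%) and at 120 h 15 and 4 (34.9% and 35.6%), with medians of 0.47 and 0.57 where those of all genes were -0.02 and -0.03. KSR1, a scaffold that joins Raf, MEK and ERK, was higher at all 5 times, from 1.55 ± 0.094 at 4 h to 4.14 ± 0.094 at 120 h (edgeR adjusted p = 4.64e-32). GAB2, a docking protein of receptor signalling, was lower at 72 h (-2.45 ± 0.076), with 221 CPM in DMSO at 72 h against 60.0 and 70.7 CPM in DMSO at 24 and 120 h. GRB2, the adaptor that SPRY2 binds, was higher by 0.88 ± 0.065 at 72 h and 1.17 ± 0.065 at 120 h. Of 18 genes of the JNK and p38 cascades, on which DUSP1 and DUSP10 act, 4 were higher and 6 lower at 4 h, 6 and 7 at 12 h, 3 and 5 at 24 h, 7 and 9 at 72 h and 6 and 7 at 120 h, beside the same shares of all genes. At 120 h this lies near the 34.9% higher and 35.6% lower of all genes, and the medians of -0.17 at 72 h and -0.03 at 120 h are beside -0.02 and -0.03. MAPKAPK2, a kinase downstream of p38, was higher by 1.58 ± 0.070 at 72 h, and MAP3K1, upstream of JNK, was lower at 4 h (-1.15 ± 0.075).

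Other phosphatases and Sprouty genes outside the 10 did not move as 1 block. Of 7 further MAP kinase phosphatase, Sprouty and SPRED genes 6 were tested. Of these, 2 were higher and 0 lower at 4 h (12.3% and 12.4% of all genes), 2 and 1 at 12 h (20% and 18.7%), and 1 and 1 at 24 h (17.4% and 15.8%). At 72 h 3 were higher and 1 lower (32.1% and 32.6% of all genes), and at 120 h 3 and 2 (34.9% and 35.6%). DUSP16, a JNK phosphatase related to DUSP10, rose by 2.08 ± 0.086 at 72 h and 2.10 ± 0.082 at 120 h (edgeR adjusted p = 4.08e-24), where DUSP10 was lower. DUSP9, an ERK phosphatase of the DUSP6 kind, was lower at these times (-4.30 ± 0.27 and -4.97 ± 0.42), from DMSO means of 12.3 and 3.75 CPM. SPRY1 was higher by 0.69 ± 0.089 at 4 h and 1.04 ± 0.086 at 12 h, times at which SPRY4 was lower, and lower at 120 h (-0.40 ± 0.085). Of 11 atypical dual-specificity phosphatases 8 were tested. At 4 h 2 were higher and 2 lower (12.3% and 12.4% of all genes), and at 12 h 3 and 3 (20% and 18.7%). At 24 h the counts were 1 and 1 (17.4% and 15.8%). They were 3 and 3 at both 72 and 120 h, near the shares of all genes given above for these times. DUSP3 was lower at all 5 times, with -1.24 ± 0.12 at 4 h and -2.08 ± 0.11 at 72 h.

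Listed cell type markers also differed between ATRA and DMSO at the late times. The 8 listed markers of monocytes and macrophages summed to 325 to 377 CPM in ATRA libraries at 72 h and 599 to 699 CPM at 120 h, against 31.2 to 36 and 28.8 to 32 CPM in DMSO. At both times 7 of the 8 were tested and all 7 were higher in ATRA. Of all tested genes 32.1% were higher and 32.6% lower at 72 h, and 34.9% and 35.6% at 120 h. CD68 reached 336 CPM and MERTK 179 CPM, CD14 10.6 CPM, and MRC1 had 5 counts in all libraries together. At 24 h, with SPRY4 and DUSP1 at their lowest, the sum was 64.7 to 75.3 CPM in ATRA and 26.4 to 30 CPM in DMSO. The sum of the 11 promyelocyte and myeloid markers was 1520 to 1900 CPM in ATRA at 120 h against 9660 to 11800 CPM in DMSO, and 7420 to 8380 against 9750 to 10200 CPM at 72 h. That sum is carried by abundant genes such as MPO, and of the 10 tested 4 were higher and 5 lower at 120 h, and 5 and 4 at 72 h. Fewer cells of a kind and less RNA per cell cannot be told apart in such bulk samples, and the part of these shifts in the members' results was not tested.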

How the data were processed

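RNA of NB4 cells was measured in 33 libraries (11 groups of 3), grouped by sample title. Stranded total RNA libraries were sequenced as paired ends, per the labels' protocols. The deposited values are raw counts of fragments per gene, made by the authors with featureCounts 1.5.1 on merged Ensembl and FANTOM gene models on GRCh38, strand by strand and with fragments over several genes counted in each, per the file headers. The submitters' processing notes list Trimmomatic 0.36, a read trimmer, STAR 2.5.2b, an aligner, and Subread 1.5.1. The deposited table also gives each gene's exon length in bases, which the authors' counting tool wrote and which was used for levels per kilobase. Symbols came from GENCODE 29, matched for 57447 of 58970 Ensembl identifiers, and promoter windows from RefSeq (GRCh38.p14).

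All tests on the counts used edgeR 4.0.16 under R 4.3.3: filterByExpr by group (22971 genes), TMM scaling (factors 0.827 to 1.11), 1 quasi-likelihood fit with a mean per group over all libraries, and Benjamini-Hochberg adjustment over all tested genes, with a threshold of 0.05. The biological coefficient of variation was 0.0769 with 15.93 prior degrees of freedom. The standard error is the absolute log2 fold change divided by the root of F, and log CPM used a prior count of 2. The script was tested on simulated data. The 15 contrasts were ATRA against DMSO at 5 times, DMSO at 5 times against untreated cells, and 5 changes of the ATRA effect between times.

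Alternatives were RLE size factors, no filter on low counts, DESeq2 1.42.0, a replicate block, a fit of the compared groups alone, mitochondrial and small RNA genes left out, replicate 2 left out (which leaves lane 3 alone from 24 h on), the mean of DMSO at 24 and 120 h as control for 72 h, and each library left out. Subtraction of the counts of a neighbour that shares at least 20% of the counted length was added after seeing the data. The members and gene lists were chosen with earlier results of these data known. All 10 members were named in every comparison. From each list up to 3 genes of smallest p per ATRA comparison described were eligible, among genes with over 330 counts in all, and for each member the 2 protein-coding genes of highest correlation with an average log2 CPM of at least 1, of which 1 is not reported here.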

Additional observations from a re-analysis of the deposited data

Results flagged for a closer look

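The size of the ATRA effect differed between times, by the test of the change itself, for 5 members from 4 to 12 h, 2 members from 12 to 24 h, 9 members from 24 to 72 h, 6 members from 72 to 120 h and 10 members from 4 to 120 h. The change of sign of SPRY4 between 24 h (-4.19) and 72 h (1.15) and the 5.34 by which its effect moved stand out among them. DUSP6, whose counts are partly shared with POC1B, is among these members in all but the step from 12 to 24 h. Many genes outside the members changed in the same steps, and from 4 to 120 h most of all tested genes did. The shares of all tested genes are given above, where the ATRA effect is compared between times. The counts of members are to be read beside those shares. Whether members changed more often than other genes was not tested. No cause of the differences between times was tested.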

How the results depend on the processing

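Of 1210 refits of member results other than those with a library left out, 1173 kept direction and side of the threshold, 19 lost the call, 16 gained it, and 2 lost it with a change of sign. Signs were compared only where the reported or the refitted value had passed the threshold. The 2 changes of sign came with neighbour counts subtracted, for DUSP6 from 4 to 12 h (-1.10) and from 4 to 120 h (-1.15), and neither refitted value passed. The number of members whose effect changed from 4 to 12 h was 3 with neighbour counts subtracted and 3 to 5 with a library left out (5 as reported). From 12 to 24 h it was 4 without the filter on low counts and with DESeq2, 1 without replicate 2, and 1 to 2 with a library left out (2 as reported). With 1 library left out, 1134 of 1200 results were unchanged in this sense, 53 lost and 13 gained the call, and none reversed. Of the counts of all genes, 7 of 226 moved by over 1.5 times. For DMSO against untreated cells without replicate 2 they fell to 4640 from 7208 genes at 4 h, to 2806 from 5208 at 12 h, to 2703 from 4390 at 24 h and to 3042 from 5024 at 120 h, and to 3214 at 120 h without DMSO 120 h replicate 5. For the change of the ATRA effect without replicate 2 they fell to 1624 from 3222 (4 to 12 h) and to 904 from 1584 (12 to 24 h), in fits with fewer samples. Of 110 group means, 6 moved by over 1 SD with RLE size factors and 29 with total counts. With Spearman's rho in place of Pearson's r, 11 of the 45 member pairs moved and 0 reversed.

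Replicate numbers were not treated as pairs. The residuals of same-numbered libraries, of ATRA and DMSO or of DMSO and untreated cells, correlated between -0.0602 and 0.20 over 30 pairs, and no comparison had every pair over 0.1. With the replicate block 1 call changed: SPRED1 at 24 h, -0.26 with an adjusted p of 0.0464.

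Low counts limit DUSP1 before 72 h and SPRY4 in ATRA at 24 h. Shared counting limits DUSP6 and DUSP2, and its part in DUSP7, which shares 4.1% of its counted length with POC1A, was not tested. Long counted models limit all levels per length. Reads from introns and flanks inside them are counted in the fold changes too, and their part in these was not tested.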
